A study of Rattus norvegicus with 10 samples.

Results

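The genes described here are 10 members of the epidermal growth factor (EGF) and fibroblast growth factor (FGF) signalling families: the receptors Egfr, Erbb2, Erbb3, Fgfr1 and Fgfr2, the EGF receptor ligands Egf, Tgfa and Hbegf, and the feedback inhibitors Spry1 and Spry2. They were chosen by name, through every probe set whose annotation gives 1 of these symbols alone, which gave 16 of the 12783 probe sets that name a single gene. The 10 are among the 10411 genes named in this way. Each sample was the whole mammary gland of female SD rats, taken at postnatal day 21, around weaning, and hybridised to a 1-colour array. The 5 soy arrays (soy 147, 149, 155, 157 and 159) came from rats on AIN-93G, a purified diet for rodents, with soy protein isolate as its protein, to which they were exposed from gestation day 4. The 5 casein arrays (casein 6, 7, 10, 18 and 20) came from rats on the same kind of diet with casein over the same period. The labels mention RNA pools and replicate targets from a pool, so it is not clear that each array is a separate animal, and p-values measure the spread between these arrays, which may be partly technical.

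In these pathways a ligand brings receptor molecules together at the cell surface, and the receptor kinases then switch on RAS and ERK signalling inside the cell. ERBB2 has no ligand of its own and ERBB3 has little kinase activity, so both act as partners in mixed receptor pairs. Sprouty proteins are made in response to the signal and damp it. In the mouse mammary gland, EGFR signalling driven by amphiregulin and FGFR2 in the epithelium are both needed for the ducts to grow into the fat pad.

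The whole gland samples differed in what they held. The marker list of luminal epithelium (7 of 12 genes on the array used, Krt8, Krt18 and Epcam among them) had a mean log2 signal from 6.87 to 9.34 in soy arrays and from 6.93 to 10.06 in casein arrays. It was lowest in soy 159 and casein 6 and highest in casein 7. Skeletal muscle transcripts (9 of 11 genes used) ran from 6.20 to 14.02 in soy and from 6.27 to 13.71 in casein, and were highest in soy 157, casein 6, soy 149 and soy 147. Lymphocyte transcripts (8 of 9 genes used) ran from 6.27 to 10.32 in soy and from 6.32 to 9.99 in casein, and were lowest in soy 149 and casein 6. Fat and stromal genes were measured in every array, with list means of 10.35 to 11.49 in soy and 10.71 to 11.18 in casein for adipocytes and of 12.21 to 12.75 in soy and 12.42 to 12.75 in casein for fibroblasts and matrix. The actin 3' to 5' log2 difference, a measure of RNA quality, was 0.50 to 0.65 in soy and 0.29 to 0.63 in casein. In a bulk sample, fewer cells of a type and less RNA per cell cannot be told apart.

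Promoters of 8 of the 10 genes were found in RefSeq (build GRCr8), and 3 are shown because Egfr and Spry2 had the widest diet differences among the brighter members and Spry1 is the relative of Spry2. Each run gives the 250 bases before the gene's start, 5′ to 3′, with every GC box (GGGCGG on either strand) in capitals.
Egfr (chr14:95378376-95378625, + strand): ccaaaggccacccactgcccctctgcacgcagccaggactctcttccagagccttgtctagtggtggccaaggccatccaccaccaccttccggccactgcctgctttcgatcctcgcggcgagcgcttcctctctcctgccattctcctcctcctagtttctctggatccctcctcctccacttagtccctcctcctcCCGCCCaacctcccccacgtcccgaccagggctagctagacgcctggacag
Spry1 (chr2:122485097-122485346, + strand): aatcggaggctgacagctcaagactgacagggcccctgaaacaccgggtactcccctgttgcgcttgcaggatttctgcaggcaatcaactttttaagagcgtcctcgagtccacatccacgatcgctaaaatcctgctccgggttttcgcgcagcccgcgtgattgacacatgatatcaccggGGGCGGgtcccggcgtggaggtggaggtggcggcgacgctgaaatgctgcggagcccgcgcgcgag
Spry2 (chr15:89111927-89112176, - strand): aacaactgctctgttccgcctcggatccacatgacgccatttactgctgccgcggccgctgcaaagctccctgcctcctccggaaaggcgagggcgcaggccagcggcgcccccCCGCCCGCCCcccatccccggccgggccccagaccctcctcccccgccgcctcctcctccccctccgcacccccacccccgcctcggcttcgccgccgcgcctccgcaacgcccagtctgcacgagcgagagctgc
The Spry2 window shown held 2 GC boxes, which overlap, and those of Egfr and Spry1 held 1 each. A second Spry2 window in the table (chr15:89109843-89110092, - strand) held 0. At least 1 GC box was found in 6 of the 9 windows of these 8 genes, against 30.5% of all 33469 promoter windows of this length. The letters TATAAA, on either strand, were in none of these 9 windows and in 12.9% of all windows. The GC content of the 9 windows ran from 51.6% to 76.8%, against a median of 51.2% over all windows. A match of letters describes the window and is no evidence of binding.

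No member passed the test of soy against casein. In limma, adjusted by Benjamini-Hochberg for all 15866 probe sets, 0 of the 16 member probe sets had an adjusted p under 0.05, and the background was 0% of all probe sets. At an unadjusted p under 0.05 there was 1 of 16, that of Spry2, against 5.31% of all probe sets. The estimate was above 0 at 4 member probe sets and below 0 at 12, with a median of -0.12 on the log2 scale. Over all probe sets, 8540 were above and 7323 below, with a median of 0.02. Egfr, Fgfr1 and Fgfr2 count more than once among the members. By the brightest probe set of each gene, 4 were above and 6 below, with a median of -0.06. Of the 16, 7 had a mean log2 signal at or above 7.47, the 40th percentile of all probe sets, and 9 were dimmer, among them the only probe sets of Erbb2, Egf, Tgfa and Hbegf. Of the 7 brighter ones, 2 had estimates above 0 and 5 below, against 4505 above and 5015 below among all probe sets this bright. Detection calls were not used here, so the dim signals could not be set against background.

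**Figure D1:**
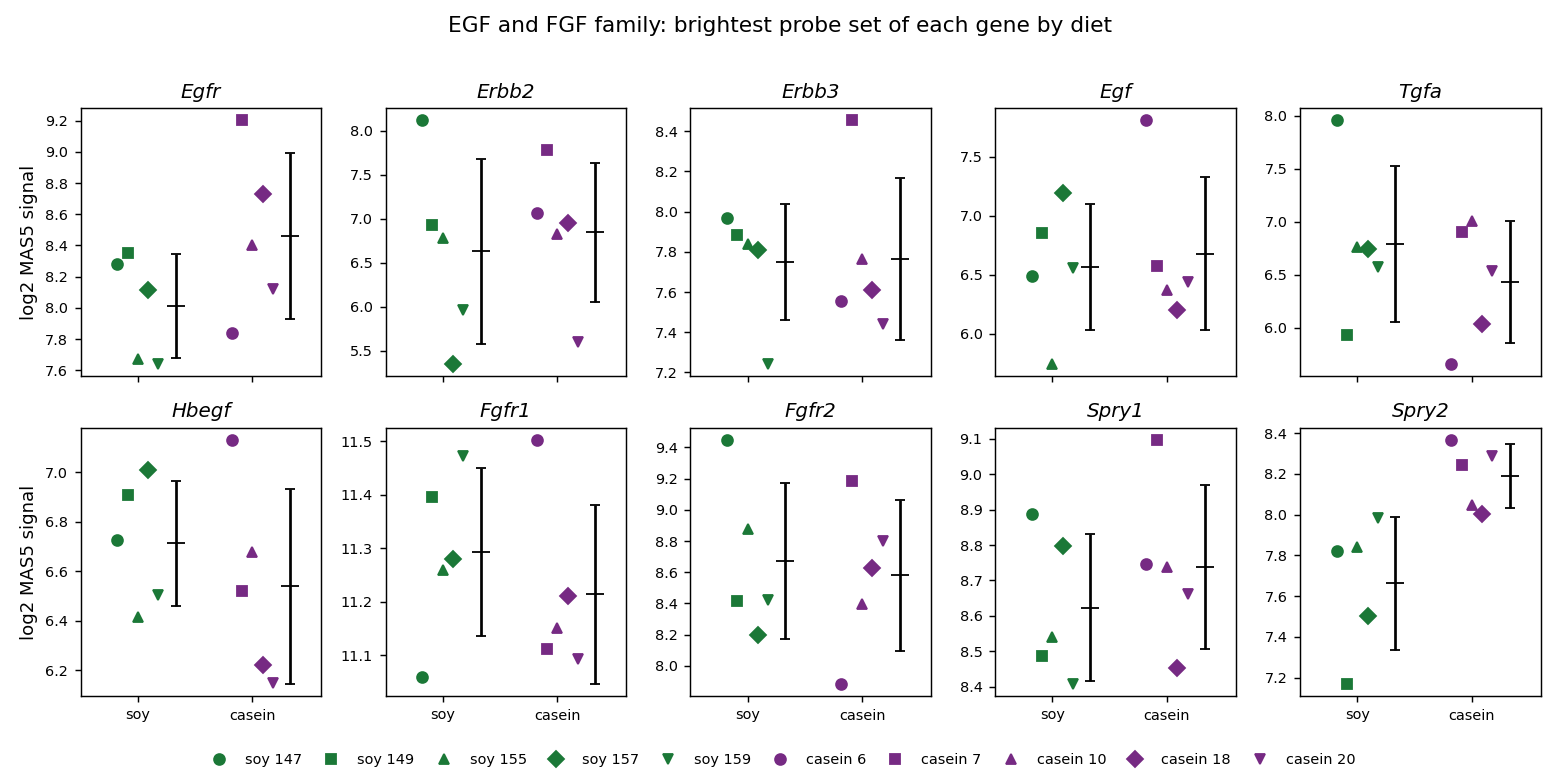
Log2 MAS5 signal of the brightest probe set of each of the 10 genes, with soy arrays on the left and casein arrays on the right of each panel, 1 symbol per array, and the mean with its SD (n = 5 per diet) as a bar. The diets overlap in every panel but that of Spry2, where the highest soy array (7.98) lies just under the lowest casein array (8.01).

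Among the inhibitors, Spry2 was the member whose diets did not overlap. Its MAS5 signal was 226.1, 144.1, 229.0, 181.2 and 253.2 in soy 147, 149, 155, 157 and 159, against 329.6, 303.6, 264.7, 257.0 and 312.6 in casein 6, 7, 10, 18 and 20. All 5 soy arrays lay below all 5 casein arrays, by a narrow margin between soy 159 and casein 18, and soy 149 was the lowest. The log2 signal averaged 7.66 ± 0.33 in soy and 8.19 ± 0.16 in casein (SD, n = 5 each), a soy minus casein difference of -0.53 ± 0.17 (SE; 95% interval -0.89 to -0.17) that did not pass in limma (adjusted p = 0.86; unadjusted p = 0.0083 by limma's moderated test). This p stood at position 133 of the 15866 probe sets. Over all probe sets, 0.996% had diets that did not overlap and 0.303% had all soy arrays below all casein arrays. The diets also did not overlap under quantile normalization and median centring, and the difference ran from -0.61 to -0.40 when 1 array was left out. Soy 149, where Spry2 was lowest, and casein 6, where it was highest, were both high in muscle and low in lymphocyte transcripts. With those list means as covariates the difference was -0.50 (unadjusted p = 0.030 and adjusted p = 0.79 in limma). Both list means fall into separate clusters, so as linear covariates they cannot show what part of the difference is tissue. The part of tissue content in the Spry2 difference was not tested.

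Spry1, the other Sprouty gene, had a signal of 473.3, 358.4, 372.0, 444.8 and 339.8 in soy 147, 149, 155, 157 and 159, against 429.9, 547.1, 426.7, 350.4 and 404.7 in casein 6, 7, 10, 18 and 20. The diets overlapped over most of their range, with the highest value in casein 7 and the lowest in soy 159. Its difference was -0.12 ± 0.14 (SE; adjusted p = 0.93 in limma, n = 5 per diet), with a 95% interval of -0.42 to 0.19.

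Of the EGF receptor family, Egfr, the receptor of EGF, TGF-alpha, HB-EGF and amphiregulin, had the widest difference. Its brightest probe set (1370830_at) had a signal of 310.5, 326.2, 204.3, 277.3 and 199.6 in soy 147, 149, 155, 157 and 159, against 229.4, 588.9, 338.5, 425.5 and 278.4 in casein 6, 7, 10, 18 and 20. Casein 7, casein 18 and casein 10 lay above every soy array, while casein 6 lay below 3 of them. The log2 signal averaged 8.01 ± 0.33 in soy and 8.46 ± 0.53 in casein (SD, n = 5 each), a difference of -0.45 ± 0.25 (SE; adjusted p = 0.86 in limma). It was -0.26 without casein 7 and -0.60 without casein 6. The other probe set of Egfr (1385413_at) gave signals of only 6.0 to 10.2 over the 10 arrays and a difference of -0.12 ± 0.26 (SE).

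Erbb2, the partner receptor without a ligand, had a signal of 278.1, 122.0, 110.0, 40.8 and 62.3 in soy 147, 149, 155, 157 and 159, against 134.3, 219.9, 113.5, 124.1 and 48.5 in casein 6, 7, 10, 18 and 20. Each diet held both high and low arrays, and the SD of the log2 signal was 1.05 in soy and 0.79 in casein. The difference of -0.22 ± 0.51 (SE; adjusted p = 0.97 in limma, n = 5 per diet) turned to 0.10 without soy 157 and to 0.016 without casein 7. It was -0.59 without soy 147 and -0.53 without casein 20.

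Erbb3, which pairs with ERBB2, had almost the same mean in both diets. Its signal was 250.2, 236.0, 229.3, 224.5 and 151.5 in soy 147, 149, 155, 157 and 159, against 187.9, 350.6, 217.2, 195.6 and 173.9 in casein 6, 7, 10, 18 and 20. Of the soy arrays, 4 lay close together and soy 159 stood below them, while casein 7 stood above all others. The log2 difference was -0.016 ± 0.21 (SE; 95% interval -0.48 to 0.45; adjusted p = 0.998 in limma, n = 5 per diet), and it was 0.11 without soy 159 and 0.16 without casein 7.

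None of the 3 EGF receptor ligands passed the test between the diets. Egf had a signal of 89.9, 115.3, 53.6, 145.9 and 94.0 in soy 147, 149, 155, 157 and 159, against 223.7, 95.3, 82.9, 73.6 and 86.7 in casein 6, 7, 10, 18 and 20. Casein 6 was far above the other casein arrays, and the difference of -0.11 ± 0.34 (SE; adjusted p = 0.98 in limma) turned to 0.17 without it and to 0.092 without soy 155. Hbegf, the heparin-binding ligand, had a signal of 106.0, 120.2, 85.5, 128.8 and 90.9 in soy 147, 149, 155, 157 and 159, against 140.0, 91.8, 102.5, 74.7 and 71.0 in casein 6, 7, 10, 18 and 20. Its difference was 0.17 ± 0.22 (SE; adjusted p = 0.93 in limma). Tgfa, which encodes TGF-alpha, had a signal of 248.5, 60.8, 108.3, 106.9 and 95.3 in soy 147, 149, 155, 157 and 159, against 50.5, 119.5, 128.8, 65.5 and 93.0 in casein 6, 7, 10, 18 and 20. Soy 147 was highest by far, and the Tgfa difference of 0.36 ± 0.38 (SE; adjusted p = 0.91 in limma) was 0.072 without it.

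Egf and Hbegf were high in the same arrays. The 4 arrays with the highest muscle list means had Hbegf signals of 106.0 to 140.0, above the 71.0 to 102.5 of the other 6 arrays. For Egf, casein 6, soy 157 and soy 149 were the highest, while soy 147 lay within the range of the other 6. Tgfa had its lowest values in casein 6 and soy 149 and its highest in soy 147, so it did not share this order. The muscle list means fall into separate clusters, as do the lymphocyte means. No slope on them is given, and a fit with them as linear covariates is a description only. In the diet fit with the muscle and lymphocyte means as covariates, the soy minus casein difference was -0.43 for Egf, -0.031 for Hbegf and 0.14 for Tgfa, and none passed in limma (adjusted p = 0.86, 0.99 and 0.97). The skin list (2 of 5 genes used) was also highest in soy 147, at 11.58. Its mean was 7.19 to 8.05 in the other soy arrays and 7.22 to 7.58 in casein. Erbb2 and the brightest probe set of Fgfr2 were highest in soy 147 too. The part of skin in the Tgfa, Erbb2 and Fgfr2 values of soy 147 was not tested.

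**Figure D2:**
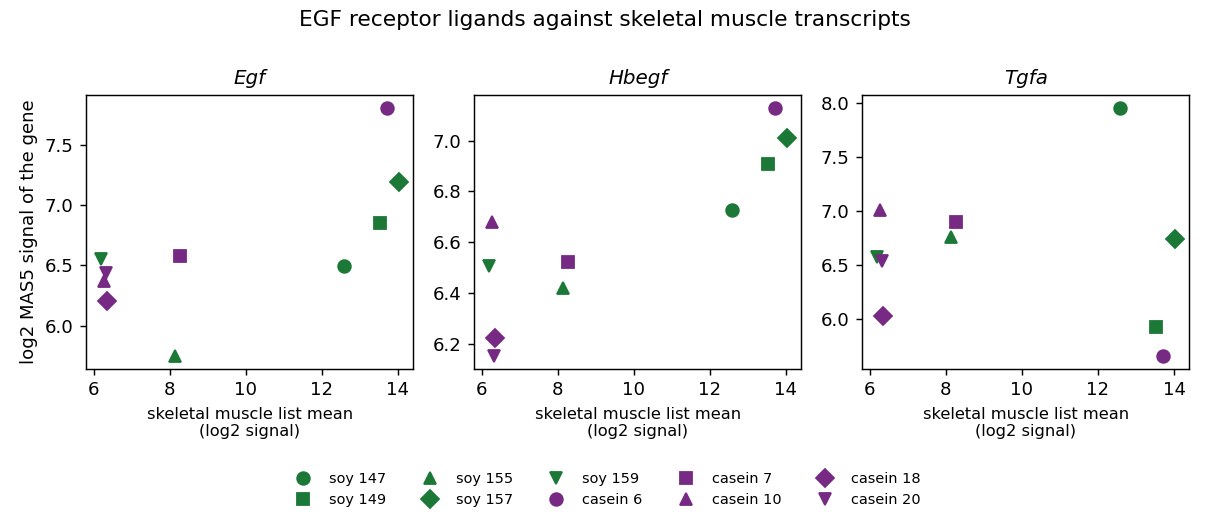
Log2 MAS5 signal of Egf, Hbegf and Tgfa (vertical axes) against the mean log2 signal of the skeletal muscle list (horizontal axes), 1 point per array, soy in green and casein in purple. Hbegf lies higher in all 4 arrays on the right, at 6.73 to 7.13, than in the other 6, at 6.15 to 6.68, while Tgfa spans its whole range among those 4.

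The FGF receptors gave small differences at their brighter probe sets. Fgfr1, a receptor found in many stromal cells, had a signal at its brightest probe set (1372447_at) of 2132.7, 2694.7, 2450.5, 2484.1 and 2842.5 in soy 147, 149, 155, 157 and 159, against 2899.6, 2213.4, 2274.6, 2368.2 and 2184.4 in casein 6, 7, 10, 18 and 20. The diets overlapped, with soy 147 the lowest and casein 6 the highest of all arrays. The difference was 0.079 ± 0.11 (SE; 95% interval -0.15 to 0.31; adjusted p = 0.94 in limma, n = 5 per diet), the narrowest interval of the 16. The other Fgfr1 probe set (1387498_a_at) had a difference of the opposite sign, -0.096 ± 0.22 (SE), with signals of 651.3 to 1343.0 in soy and 696.3 to 1390.3 in casein, and it turned to 0.032 without soy 157 and to 0.026 without casein 6.

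Fgfr2, whose epithelial splice form receives FGF7 and FGF10 from the stroma, was measured by 5 probe sets that differed in sign. The brightest (1373829_at) had a signal of 696.8, 341.4, 469.3, 293.7 and 343.1 in soy 147, 149, 155, 157 and 159, against 236.6, 581.3, 336.5, 396.0 and 446.7 in casein 6, 7, 10, 18 and 20. Soy 147 and casein 7 were the highest and casein 6 the lowest. Its difference of 0.092 ± 0.27 (SE; adjusted p = 0.98 in limma) was -0.10 without soy 147 and -0.082 without casein 6. The other 4 Fgfr2 probe sets, all below the 40th percentile, had differences of -0.13, -0.33, -0.74 and -0.29, with adjusted p of 0.94, 0.86, 0.88 and 0.90 in limma. The -0.74 (1371179_a_at) rested on soy 147, at a signal of 5.0 where the other soy arrays had 24.5 to 56.2 and casein arrays 37.9 to 52.7, and was -0.13 without it. Which splice forms these probe sets detect is not given in the sources used here.

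**Figure D3:**
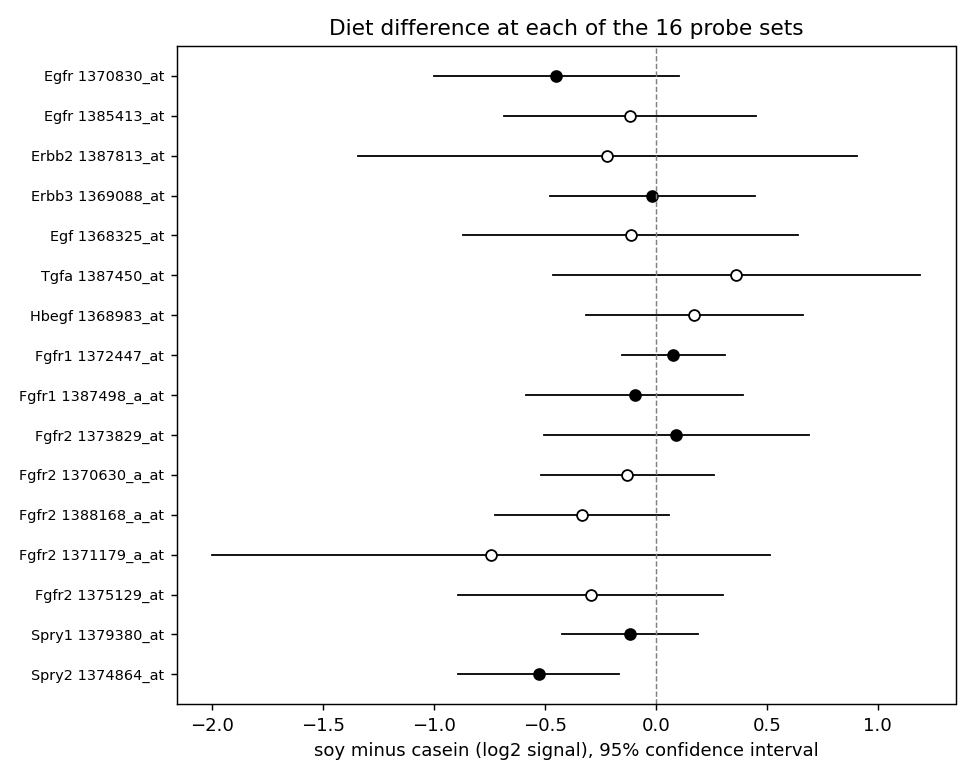
Soy minus casein difference in log2 signal (horizontal axis) with its 95% confidence interval from limma for each of the 16 probe sets. Filled points are the 7 probe sets at or above the 40th percentile of mean signal and open points the 9 below it, and only the interval of Spry2, -0.89 to -0.17, leaves out 0.

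The signals were also set against epithelial markers across the 10 arrays, and no member passed there. In limma fits of each probe set on the luminal list mean, 0 of 16 member probe sets had an adjusted p under 0.05, against 0.504% of all probe sets, which is 80 probe sets with 5 of list genes among them (39 without casein 7 and 45 without casein 6). At an unadjusted p under 0.05 there were 5 of 16, 3 with a positive and 2 with a negative slope, against 12.5% of all probe sets. Fgfr1 counts 2 times among these 5, and all 5 were at or above the 40th percentile of mean signal. In a fit of only the 9520 probe sets this bright, 1461 had an unadjusted p under 0.05, and 5 of the 7 members did. The log2 signal per log2 unit of the luminal mean was 0.33 ± 0.10 for Egfr (1370830_at), 0.24 ± 0.08 for Erbb3 and 0.30 ± 0.10 for the brightest probe set of Fgfr2 (SE). For Fgfr1 the slope was negative at both probe sets, -0.13 ± 0.04 and -0.22 ± 0.09 (SE). The adjusted p of these 5 in limma ran from 0.23 to 0.35. The dimmer Egfr probe set (1385413_at) had a slope of 0.024, and the dimmer Fgfr2 probe sets had 0.090, -0.069, -0.29 and 0.046. All of these had unadjusted p over 0.05 in limma. Without casein 6 the slope of the brightest Fgfr2 probe set was 0.24 (unadjusted p = 0.069 in limma). Without casein 7 the slope was 0.22 for Egfr, 0.16 for Erbb3 and -0.36 for Fgfr1 (1387498_a_at), and 3 of 16 had an unadjusted p under 0.05. Tgfa, at 0.36 ± 0.17, Erbb2, at 0.33 ± 0.24, and Spry1, at 0.12 ± 0.06 (SE), had positive slopes with unadjusted p over 0.05. With diet in the model the 5 slopes were 0.30, 0.24, 0.32, -0.12 and -0.24.

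The basal and myoepithelial list (6 of 8 genes used, Krt5 and Acta2 among them) gave an unadjusted p under 0.05 at 5 probe sets. All 5 were shared with the luminal list. The basal and luminal list means rose and fell together over the arrays, with casein 7, casein 18 and soy 147 highest in both. The shared probe sets are therefore no separate result. Again 0 of 16 passed, against 0.586% of all probe sets, which is 93 (38 to 60 without any of casein 6, casein 7, casein 10, casein 18 or soy 155, and 156 without soy 159). The 5 unadjusted calls stand against 12.4% of all. The slopes were 0.41 for Egfr (1370830_at), 0.28 for Erbb3, 0.43 for Fgfr2 (1373829_at) and -0.18 and -0.36 for Fgfr1. Their adjusted p ran from 0.22 to 0.37 in limma. The dimmer Egfr and Fgfr2 probe sets had unadjusted p over 0.05 here too. Both epithelial list means were lowest in soy 159, casein 6 and soy 149. Among the other 7 arrays the luminal slope was 0.66 for Egfr, 0.52 for Erbb3 and 0.38 for Fgfr2, and -0.026 and 0.13 for Fgfr1, so the negative Fgfr1 slopes rested on those 3 arrays. For Egfr, Erbb3 and Fgfr2 the unadjusted p in limma was 0.016, 0.0089 and 0.16, and no member passed. On the basal mean the slopes of Egfr, Erbb3 and Fgfr2 among these 7 arrays were 0.84, 0.54 and 0.61. Their unadjusted p in limma was 0.055, 0.10 and 0.13. This selection of arrays was made after seeing the data. The adipocyte mean gave 1 of 16 member probe sets with an unadjusted p under 0.05, against 6.21% of all, and the fibroblast and matrix mean gave 4 of 16, against 16.3% of all. No probe set of any gene passed in limma for these 2 lists with all 10 arrays, while 183 passed for fibroblasts and matrix without soy 159. The fibroblast mean was highest in casein 6, soy 149 and soy 159, the 3 arrays of lowest epithelial means. Slopes on it are therefore not separate from the epithelial slopes. It spanned only 12.21 to 12.75, less than the 1 log2 unit to which a slope refers. With the fibroblast list the slope was 2.41 ± 0.80 for Egf, -2.42 ± 0.98 for Tgfa, 0.67 ± 0.26 for Fgfr1 (1372447_at) and -1.75 ± 0.66 for Fgfr2 (1373829_at, all SE). Without casein 6 these were 1.599, -1.92, 0.55 and -1.31, and 0 of 16 had an unadjusted p under 0.05. Without soy 155 the Tgfa slope was -3.75 and that of Fgfr1 1.14. Under quantile normalization the Tgfa, Fgfr1 and Fgfr2 slopes shrank to -1.36, 0.26 and -0.55.

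**Figure D4:**
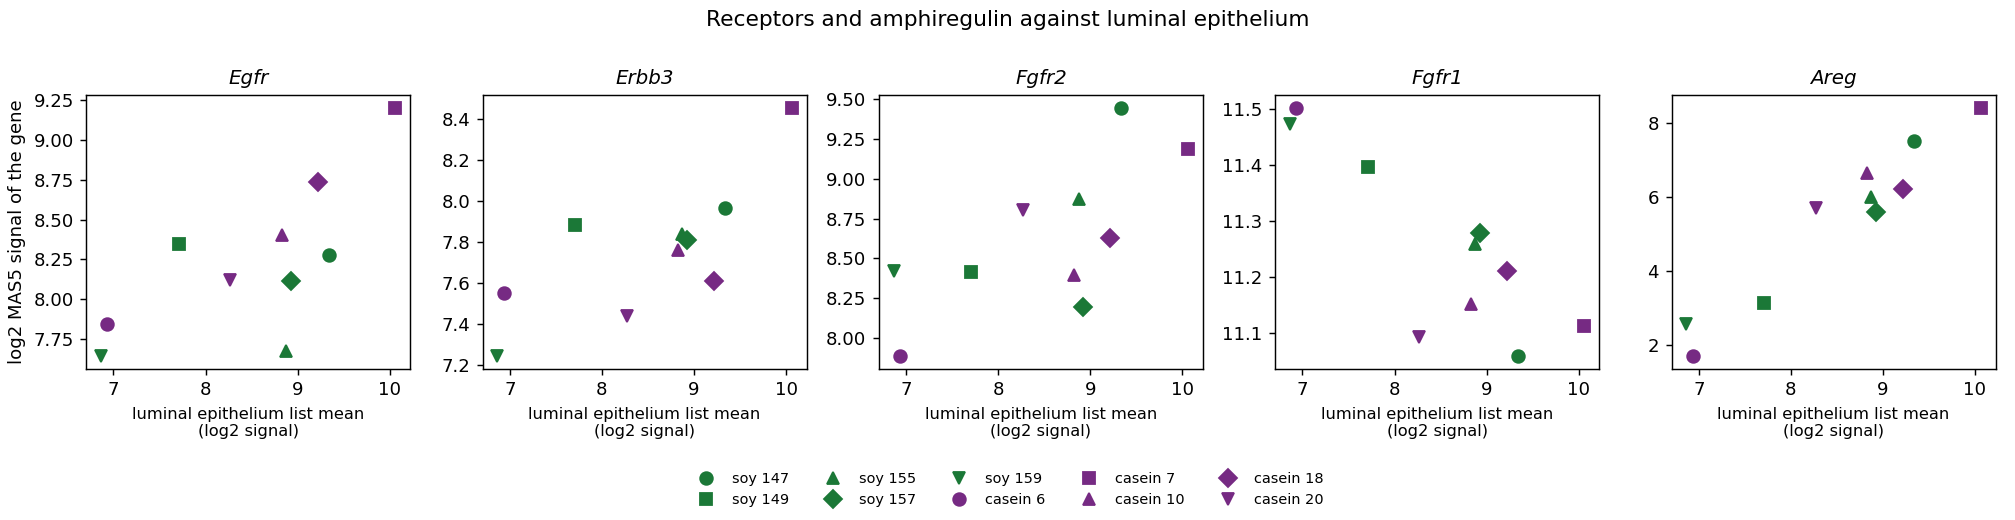
Log2 MAS5 signal of Egfr, Erbb3, Fgfr2, Fgfr1 (brightest probe set each) and Areg (vertical axes) against the mean log2 signal of the luminal epithelium list (horizontal axes), 1 point per array, soy in green and casein in purple. Areg covers the widest range, 1.68 to 8.41, and Fgfr1 runs the other way, with its 3 highest values in the 3 arrays of lowest luminal mean.

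Of 43 other genes of the EGF and FGF pathways, 29 were on the array with a probe set of their own, and 13 of these were at or above the 40th percentile. Against the luminal mean 1 of the 29 passed, where 0.504% of all probe sets did, and 6 had an unadjusted p under 0.05, or 20.7% against 12.5% of all. The gene that passed was Areg, which encodes amphiregulin, and it was named after its values were seen. Its mean log2 signal of 5.34 lies below the 40th percentile. Its signal was 183.5, 8.8, 63.4, 48.0 and 5.9 in soy 147, 149, 155, 157 and 159, against 3.2, 340.5, 99.6, 73.8 and 52.0 in casein 6, 7, 10, 18 and 20. The 3 arrays with the lowest luminal means had values under 10, and casein 7 and soy 147, with the highest luminal means, had the highest. The slope was 2.02 ± 0.19 (SE) log2 units per unit of the luminal mean (adjusted p = 3.6e-04 in limma, n = 10 arrays) and 2.70 ± 0.31 (SE) per unit of the basal mean (adjusted p = 0.0017). The luminal slope ran from 1.90 to 2.16 when 1 array was left out, with adjusted p of 5.4e-04 to 0.0035. Among the 7 arrays with the highest list means it was 1.61 and did not pass (adjusted p = 0.62 in limma), and the basal slope was 1.84 (adjusted p = 1). Signals of 3.2 to 8.8 were not set against background, so the size of the slope is not exact. Between the diets Areg differed by -0.77 ± 1.23 (SE; adjusted p = 0.95 in limma, n = 5 per diet). Dusp6, an ERK phosphatase induced by the pathway and also named after its values were seen, had a luminal slope of 0.16 ± 0.04 (SE; adjusted p = 0.18 in limma).

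For soy against casein, 0 of these 29 genes passed in limma, and 2 had an unadjusted p under 0.05, 1 in each direction, a share of 6.90% that is near the 5.31% of all probe sets. The estimates were above 0 for 15 and below 0 for 14, with a median of 0.01. Fgf9, an FGF ligand, had a signal of 69.6, 88.8, 70.9, 110.6 and 88.2 in soy 147, 149, 155, 157 and 159, against 73.0, 44.1, 50.5, 69.2 and 47.2 in casein 6, 7, 10, 18 and 20. Its difference was 0.60 ± 0.22 (SE), and casein 6 was the only casein array above a soy array. Fgf1, a ligand of all FGF receptors, had a signal of 66.9, 103.4, 79.6, 58.1 and 85.7 in soy 147, 149, 155, 157 and 159, against 70.2, 131.7, 122.2, 133.3 and 115.1 in casein 6, 7, 10, 18 and 20. Here casein 6 was the only casein array below a soy array, and the difference was -0.53 ± 0.23 (SE). Errfi1, an EGFR feedback inhibitor, had a difference of 0.39 ± 0.21 (SE), with signals of 996.9 to 1742.9 in soy and 604.8 to 1235.0 in casein. The EGF receptor ligands Ereg and Btc stood at 0.37 ± 0.17 and 0.25 ± 0.16, and the neuregulin Nrg2 at 0.79 ± 0.49 (SE). Fgf18 and the receptor Fgfr4 had differences of 0.91 ± 0.43 and -0.97 ± 0.47 (SE) at signals of 4.6 to 41.8 and 12.4 to 90.3 over all arrays. Adjusted p was 0.86 in limma for 7 of these 8 genes and 0.87 for Btc.

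The genes most like each member over the 10 arrays were found among 8142 probe sets of other genes at or above the 40th percentile, as a description only. The top r of so large a search over 10 arrays is high by selection, and no background for it was computed. Not all of the genes found are named here. Erbb3 was most like Slc44a4, a choline transporter-like protein of epithelia (Pearson r = 0.96), followed by Rtn1, a reticulon of the endoplasmic reticulum (r = 0.91). Egf was most like Pgm1, phosphoglucomutase (r = 0.97), and Orai1, a calcium channel subunit (r = 0.96). Hbegf was most like Sypl2, a membrane protein of skeletal muscle (r = 0.94), Tmod1, which caps actin filaments (r = 0.93), and Gfap (r = 0.93). Spry1 was followed by Cfap20 (r = 0.94) and the Notch target Hes1 (r = 0.90), and Spry2 by Uri1 (r = 0.93). First for the others were Gp2 for Egfr (r = 0.91), Tead3 for Erbb2 (r = 0.96), Clk2 for Tgfa (r = 0.93), Apba1 for Fgfr1 (r = 0.93) and Lrrc42 for Fgfr2 (r = 0.95). These arrays share differences in epithelium, muscle and lymph node content, as given above.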

How the data were processed

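The authors deposited a linear intensity, the MAS5 signal of each probe set, as the submitters' processing notes name that algorithm. For its version and settings nothing is given in the sources used here. The 2% trimmed mean was 500.1 on every array, so the deposited scaling was kept. Spearman coefficients between arrays ran from 0.924 to 0.983.

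A floor of 1 was set before taking log2. All 15866 probe sets that are not controls were tested, without a brightness filter, with the linear models of limma 3.58.1 (R 4.3.3), eBayes moderation with an intensity trend, two-sided p-values and Benjamini-Hochberg adjustment at a threshold of 0.05. Differences are log2 soy minus log2 casein. The same fit was run on the array means of 4 marker lists (luminal, basal, adipocyte, fibroblast), each from the brightest probe set of the genes at or above the 40th percentile. Several probe sets of a gene are given separately. Precision is limited by the number of arrays, with a median SE of 0.24 for a member's difference.

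Named were all members, the 8 pathway genes of smallest p, and the 3 probe sets most like each member, of which the text gives 1 to 3. Areg and Dusp6 fall outside this rule and were named after their values were seen. Members and lists were chosen with earlier results of these data known. The fits were tested on simulated data. There the diet fit recovered 22% of 50 changes of 1.5-fold and 66% of 50 changes of 2-fold. It recovered 90% of 50 changes of 4-fold and 88% of 50 changes of 8-fold, so large differences can be missed as well as small ones. The median SD was 0.349 for the 16 member probe sets and 0.294 for all probe sets. The simulated shares therefore need not hold for the members.

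Alternatives were filters at the 40th and 60th percentile, log2(signal + 16), quantile normalization, median centring, other variance models, array weights, covariates and leaving out each array. Lists of nerve and Schwann cells (means 10.19 to 11.18 in soy, 9.95 to 10.21 in casein) and of endothelium (9.49 to 9.84 in soy, 9.43 to 9.69 in casein) were also computed.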

Additional observations from a re-analysis of the deposited data

Results flagged for a closer look

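In 3 of 32 sets of 5 arrays (16 probe sets in each diet) 1 array stood far from the others by Dixon's test, where chance gives about 1.6. Erbb3 was at 7.243 (log2 signal) in soy 159, against 7.811 to 7.967 in the other soy arrays. For Egf, casein 6 had 7.805 and the rest of the casein arrays 6.202 to 6.574. For Fgfr1 (1372447_at), casein 6 had 11.5 and the rest of the casein arrays 11.09 to 11.21. Soy 159 and casein 6 were also the arrays of lowest luminal list mean, 6.87 and 6.93, and casein 6 had a muscle list mean of 13.71.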

How the results depend on the processing

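No paired analysis was possible because the diets share no replicate numbers. The count of member probe sets with an adjusted p under 0.05 was 0 in every setting run, for the diet and for all 4 list means, and the count over all probe sets for the diet was also 0. The filters leave fewer members tested. Signs of the diet difference turned, with the cause not tested, in these cases. With the ratio of the actin 3' and 5' probe sets as covariate they were 0.038 for Egfr (1385413_at), 0.23 for Erbb2, 0.17 for Erbb3, 0.090 for Egf and 0.051 for Fgfr1 (1387498_a_at), which stood at 0.012 with array weights. Erbb3 was at 0.062 with the luminal mean as a covariate. With muscle and lymphocyte means, Hbegf was at -0.031 and Fgfr1 (1387498_a_at) at 0.11. Without 1 array the difference ran from -0.59 to 0.10 for Erbb2, from -0.097 to 0.16 for Erbb3, from -0.27 to 0.17 for Egf, from -0.23 to 0.032 for Fgfr1 (1387498_a_at) and from -0.10 to 0.24 for Fgfr2 (1373829_at). The Fgfr1 (1387498_a_at) luminal slope was 0.13 among the 7 arrays of highest luminal mean.

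Over all probe sets, the luminal mean gave 80 calls, 45 with the 40th percentile filter, which tests fewer probe sets, and 6 among the 7 arrays of highest luminal mean, and the basal mean 93, 52 and 0. Without 1 array these counts ran from 39 (without casein 7) to 115 for luminal and from 38 (without casein 6) to 156 (without soy 159) for basal. The fibroblast count of 0 became 183 without soy 159, 1 without soy 155 and 2 without casein 20, so it ran from 0 to 183. Member signals near the floor of MAS5 limit what can be said of the dim probe sets.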
